A study of Mus musculus with 4 samples.

Results

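The genes described here are 10 genes of the endolysosomal system: the cysteine cathepsins Ctsb, Ctsl, Ctss and Ctsz, the aspartic cathepsins Ctsd and Ctse, the cystatins Cst3 and Cst7, and the lysosomal membrane genes Cd68 and Cd63. They were taken by symbol from the 32285 genes of the count matrices, and all 10 were found. Their unique molecular identifiers (UMIs, which count captured RNA molecules) were summed in each library within cell types set by marker genes. The nuclei were cortical and came from GCLC-KO mice, which carry a floxed Gclc allele (C57BL/6NTac-Gclctm1a(EUCOMM)Wtsi/WtsiCnbc) deleted by CaMKII-Cre, a Cre driven in neurons. Gclc encodes the catalytic subunit of the enzyme that limits glutathione synthesis. Single-nucleus RNA-seq was done on 4 untreated mice, 2 of each age. The libraries are called 3M-1 or 3M-2 at 3 months, then 6M-1 or 6M-2 at 6 months, and 4 values in a row are given in that order. Every library was a knockout and no wild-type library was analysed here, so the comparisons are of age, of cell type and of microglial state, not of genotype. The cortical regions taken were rich in rod-shaped microglia.

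Cathepsins are proteases that break down proteins in the lysosome, most of them activated by its low pH. Cystatins inhibit cysteine cathepsins but not the aspartic ones. Phagocytic cells carry much of this machinery, and in mice several of these genes belong to the disease-associated microglia (DAM) program, a state in which microglia lower homeostatic genes and raise genes of phagocytosis and lipid handling.

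Of 30784 deposited barcodes, 30515 nuclei passed the study's filter, with 59262228 to 65894316 UMIs a library. The marker gate took 2163 microglia (473, 389, 721 and 580 by library), 4455 oligodendrocytes, 859 oligodendrocyte precursors (OPC), 256 astrocytes, 13619 excitatory neurons, 3487 inhibitory neurons, 77 vascular cells and 22 macrophages, and 5577 nuclei stayed ungated. All 14 microglial markers had UMIs in the microglia of every library, at a summed level of 12130 to 15060 CPM (UMIs scaled to a total of 1000000 for the type and library). Pairs of libraries shared 12 to 19 barcodes. Gclc itself stood at 33.3 to 42.4 CPM in excitatory neurons; with 3′ counting and no wild-type library this does not check the deletion. Library 3M-1 stood apart for Cst3 and was lowest in microglia for Ctsl and Ctsz, as described with those genes. It was also lowest there for Ctsd (333 CPM against 374 to 489) and Cd68 (50.7 against 58.8 to 68). For Ctsb, Ctss, Ctse, Cst7 and Cd63 the lowest was 3M-2.

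Proximal promoters were found in the RefSeq table (GRCm38.p6) for 8 of the 10 genes. Ctsb and Ctse had no entry. Windows ran from 250 bases before to 50 after the RefSeq start. They were searched on both strands for the E-box CACGTG, for the longer TCACGTGA that contains it and is the form bound by the lysosomal regulator TFEB, and for GGAAGT, a core bound by the myeloid factor PU.1. CACGTG was in the windows of Ctsd and Ctsl and in 7.15% of all 32851 promoters. TCACGTGA was in that of Ctsd and in 0.974% of all. GGAAGT was in those of Ctss, Cst7, Cd68 and Cd63 and in 23.8% of all. A match is only a match of letters. The 250 bases before the start are printed for Ctsd and Cst7, which were higher in DAM-gated microglia, and for Cst3, which was lower, 5′ to 3′ with matches in capitals. They lie at chr7:142387828-142388077 on the minus strand (Ctsd), chr2:150570165-150570414 on the plus strand (Cst7) and chr2:148875513-148875762 on the minus strand (Cst3). The RefSeq starts differ in part from the GENCODE M21 genes given below. Those genes reach to 142388038 (Ctsd) and 148875692 (Cst3), so part of each of these printed stretches lies inside the gene. The searched windows of Ctsl and Cd63 lie wholly inside their GENCODE genes.
Ctsd: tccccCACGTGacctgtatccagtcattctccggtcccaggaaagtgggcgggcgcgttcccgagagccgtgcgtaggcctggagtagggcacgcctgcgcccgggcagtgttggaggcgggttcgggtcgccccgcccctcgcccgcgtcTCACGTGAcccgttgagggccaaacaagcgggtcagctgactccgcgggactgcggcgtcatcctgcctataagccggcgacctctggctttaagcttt
Cst7: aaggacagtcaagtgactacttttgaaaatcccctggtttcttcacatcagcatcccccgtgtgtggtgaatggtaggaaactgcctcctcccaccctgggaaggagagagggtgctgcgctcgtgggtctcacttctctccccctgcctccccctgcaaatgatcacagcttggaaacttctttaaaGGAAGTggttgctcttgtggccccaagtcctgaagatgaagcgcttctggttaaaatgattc
Cst3: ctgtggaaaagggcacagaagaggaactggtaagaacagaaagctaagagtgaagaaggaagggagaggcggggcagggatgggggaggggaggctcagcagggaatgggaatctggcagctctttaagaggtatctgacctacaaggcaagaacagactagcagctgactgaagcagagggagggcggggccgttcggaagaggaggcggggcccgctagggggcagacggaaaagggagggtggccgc
The Ctsd window held CACGTG near its far end and again inside TCACGTGA. Cst7 held GGAAGT, and Cst3 held no match.

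In GRCm38 (mm10), with positions from GENCODE M21, the cysteine cathepsin genes lie at chr14:63122462-63145923 (Ctsb, plus strand), chr13:64359337-64370890 (Ctsl, minus), chr3:95526786-95556403 (Ctss, plus) and chr2:174427493-174439039 (Ctsz, minus). The aspartic cathepsins lie at chr7:142375911-142388038 (Ctsd, minus) and chr1:131638306-131675505 (Ctse, plus). Cst3 and Cst7 are both on chromosome 2, at chr2:148871722-148875692 (minus) and chr2:150570415-150578944 (plus). Cd68 lies at chr11:69664213-69666153 (minus) and Cd63 at chr10:128900989-128912822 (plus). On the same strand Gm49369 overlaps Ctsd, Gm49230 overlaps Ctsl and Hmgb1-ps5 overlaps Ctss, so the counts of these 3 genes are uncertain where the counting could split reads. Fdft1, Gm47123 and Nelfcd overlap Ctsb, Ctsl and Ctsz on the opposite strand.

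The first question was where in the cortex these genes were expressed. Among microglia, oligodendrocytes, OPC, astrocytes and neurons, 8 of the 10 genes had their highest mean level in microglia. The exceptions were Cst3 and Cd63, whose highest mean was in astrocytes. Vascular cells and macrophages (22 nuclei, none in 3M-2) were left out of this order. In the macrophages of 3M-1, 6M-1 and 6M-2 Ctsb was at 439, 712 and 572 CPM, on 10, 13 and 6 UMIs. These values lay above those of all gated microglia, at 279 to 395 CPM by library. The DAM-gated microglia described below ran from 420 to 879 CPM for Ctsb and overlapped with the macrophages. Ctsl was at 132, 274 and 95.3 CPM in these macrophages, on 3, 5 and 1 UMIs. Within the same mice, microglia exceeded excitatory and inhibitory neurons for all 10 genes (edgeR's quasi-likelihood test with library as a block, adjusted p under 0.05), where 69.5% and 72.5% of all tested genes differed in either direction. Against oligodendrocytes 9 of 10 were higher in microglia, beside 58.7% of all genes, and against OPC all 8 tested were higher, beside 61.1%. All of these shares count both directions. Genes called higher in microglia were 5439 of 18021 against excitatory and 5122 of 14874 against inhibitory neurons. They were 3663 of 12088 against oligodendrocytes and 3565 of 11662 against OPC. These differences depend on the scaling: without TMM, the median of all genes moved from 0.01 to 0.38 (log2) against oligodendrocytes and from -0.20 to 0.43 against excitatory neurons, and calls higher and lower in microglia from 3663 and 3427 to 5635 and 2291 and from 5439 and 7090 to 8537 and 4713. Against OPC they went from 3565 and 3566 to 4804 and 2890, against astrocytes from 2114 and 1923 to 2893 and 1591, and against inhibitory neurons from 5122 and 5656 to 6836 and 4322.

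Ctss, a cysteine cathepsin of myeloid cells that works in antigen presentation, was at 545, 451, 683 and 601 CPM in the microglia of the 4 libraries. Its highest level in any oligodendrocyte, OPC, astrocyte or neuron sum was 21.6 CPM, on 5 UMIs in the astrocytes of 6M-2. The ranges of microglia and every other type were thus apart, and the log2 difference was 5.63 ± 0.189 (SE) against oligodendrocytes and 7.06 ± 0.262 against excitatory neurons. After each nucleus of at least 1000 UMIs was thinned to 1000, 42.7% of microglia held a Ctss UMI against 0.614% of oligodendrocytes. By library the oligodendrocyte share ran from 0% to 1.33%, and the part of free RNA in it was not tested.

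Ctsb, an abundant cysteine cathepsin, was at 340 ± 51.3 CPM in microglia (SD, n = 4 libraries), and 36.3 ± 3.24 to 64.4 ± 2.48 CPM in the other glia and neurons. Astrocytes and oligodendrocytes overlapped in its order of levels, as did inhibitory neurons, OPC and excitatory neurons in turn. Ctsl, a cysteine cathepsin with broad expression, was at 121 ± 16.3 CPM in microglia and 74.9 ± 13.3 in astrocytes, a log2 difference of 0.42 ± 0.204 that did not pass the test (adjusted p = 0.11), though their ranges did not overlap. It passed without TMM (0.69), with no filter on low counts (0.69) and with clusters in place of the gate (0.77). Ctsz, which trims peptides from their carboxyl end, was at 186 ± 36.2 CPM in microglia and 4.08 ± 1.21 in excitatory neurons. Ctsd, the main aspartic protease of lysosomes, was at 412 ± 71.8 CPM in microglia and 54.7 ± 27.8 in astrocytes, the next mean among the glia and neurons. Astrocytes and oligodendrocytes overlapped in Ctsd. The astrocytes of 6M-2 were at 95.1 CPM and the others at 36 to 51. Their microglial markers summed to 359 CPM, against 32.5 to 36 in the others, and the part of these in Ctsd was not tested.

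Ctse, an aspartic protease of endosomes, and Cst7 (cystatin F), an inhibitor made by immune cells, had means of 40.9 and 19.1 CPM in microglia. In the other glia and neurons the means were at most 0.687 CPM (Ctse) and 0.945 CPM (Cst7). Ctse had 216 UMIs in microglia, 9 in oligodendrocytes, 41 in excitatory and 13 in inhibitory neurons and none in astrocytes. Cst7 had 94, 8, 97, 28 and none, so excitatory neurons held more of its UMIs than microglia, at a far lower level. Zero UMIs among 887340 in the astrocytes of the 4 libraries pooled allow up to 3.38 CPM. Microglia pooled alike were at 47.6 CPM for Ctse and 20.7 CPM for Cst7. Over the pool, Ctse was thus at least 14.1-fold and Cst7 at least 6.12-fold higher in microglia, for counting error only. In 3M-2 alone the astrocyte bound was 12.2 CPM, above its microglia at 7.35 (Ctse) and 8.82 CPM (Cst7), so these folds do not hold for each library. Cd68, a heavily glycosylated protein of the late endosome and a common marker of phagocytes, was at 60.4 ± 7.48 CPM in microglia and at 1.08 to 2.84 CPM on average in the other glia and neurons.

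Cst3 (cystatin C), a secreted inhibitor of cysteine cathepsins, was high in both microglia and astrocytes. It stood at 319, 906, 866 and 760 CPM in microglia and at 297, 911, 885 and 1405 CPM in astrocytes. The ranges overlapped, and the log2 difference of -0.50 ± 0.202 missed the threshold (adjusted p = 0.0535). It passed without 3M-1 (adjusted p = 0.0393) and without 6M-1 (adjusted p = 0.0419). Cd63, a tetraspanin of late endosomes and exosomes, was higher in astrocytes (140 ± 20.9 CPM) than in microglia (54.9 ± 8.49 CPM), a log2 difference of -1.63 ± 0.201 with an adjusted p of 3.89e-06. Microglia and oligodendrocytes (41.6 ± 12 CPM) did not differ in Cd63 by the test, at a log2 difference of 0.06 ± 0.166, but without TMM Cd63 was higher in microglia (0.43 ± 0.173, adjusted p = 0.0404). The Cd63 call against OPC was lost without 6M-1 (0.57, adjusted p = 0.0615). In microglia against astrocytes, 5 of 8 tested members were higher and 1 lower, beside 47.5% of all genes called.

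Vascular cells were few (9, 14, 25 and 29 nuclei), so 3M-1 was left out there. In the other 3 libraries 4 of 8 tested members were higher in microglia, beside 21.2% of all genes called in either direction. Those not called were Ctsl (log2 difference 1.61, adjusted p = 0.0684), Ctsz (0.75, 0.302), Cst3 (0.49, 0.331) and Cd63 (0.43, 0.793). In these vascular cells Ctsz was at 99.1, 135 and 125 CPM and Cst3 at 446, 595 and 768. Cd68 had no UMI in the vascular cells, a bound of at least 2.44-fold over these 3 libraries pooled. Its call was lost without 6M-1 (adjusted p = 0.147) or 6M-2 (adjusted p = 0.187). Of 115 other listed lysosomal genes, 53 of 95 tested were higher and 19 lower in microglia than in oligodendrocytes. Over all 12088 genes, 3663 were higher and 3427 lower, 58.7% in either direction. The median log2 difference of the listed genes was 0.57, against 3.40 for the members. Ctsh, a cathepsin with aminopeptidase activity, was 5.89 higher on the log2 scale. Abca2, a lysosomal transporter of myelinating cells, was lower (-4.10).

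**Figure D1:**
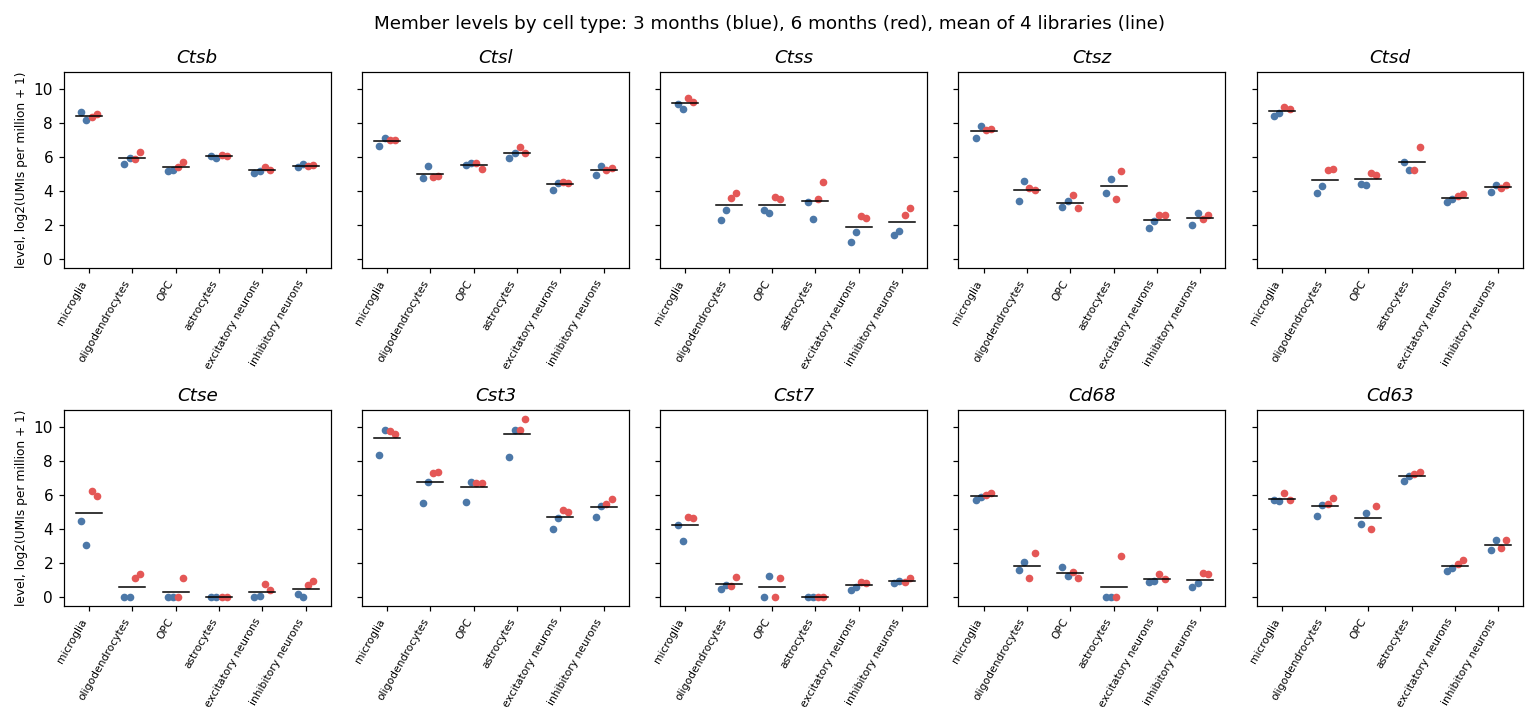
Level of each gene as log2(CPM + 1) in 6 cell types. Each point is 1 library (blue 3 months, red 6 months) and the line is the mean of the 4 points. Ctss, Ctse, Cst7 and Cd68 are highest in microglia, with ranges apart from every other type shown, and Cst3 and Cd63 are as high or higher in astrocytes.

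The genes whose levels ran most alike over 28 sums (7 types in 4 libraries) were sought among 12310 genes. For Ctss they were Cyth4, Trem2 and C1qc (Pearson's r of log2 CPM 0.973, 0.972 and 0.971). For Ctsz they were Lpar6, Msn and Cflar (0.969, 0.96 and 0.957), and for Ctsd Fyb, Rcbtb2 and Fcer1g (0.956, 0.954 and 0.954). For Ctsb they were Lgmn, Clta and Mbnl1 (0.934, 0.915 and 0.914). Cst3 was nearest to Kdm3a, Pnp and Hnrnpa3 (0.919, 0.912 and 0.904), Cd63 to Eci2, Kmt2c and Son (0.929, 0.928 and 0.928), and Ctsl to Arhgap12, Rhoq and Nipbl (0.86, 0.857 and 0.853). These points share libraries and depth, Cyth4, C1qc and Fyb were markers of the gate, and the values are a description. The sums included the small vascular ones, down to 9 nuclei in 3M-1, with 0.5 added to each count. Ctse, Cst7 and Cd68 had too few UMIs outside microglia.

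The second question was whether the genes differed between 3 and 6 months. In microglia 1 of the 10 passed the test, Ctse, beside 26 of 11607 genes called (0.224%). Ctse was at 20.8 and 7.35 CPM at 3 months (23 and 5 UMIs) and at 75.2 and 60.4 CPM at 6 months (109 and 79 UMIs). Both 6-month libraries lay above both 3-month ones. The means were 14.1 ± 9.54 and 67.8 ± 10.5 CPM (SD, n = 2 libraries an age), and edgeR gave a log2 fold change of 2.11 ± 0.363 with an adjusted p of 0.0183. Within batch 1 the log2 ratio was 1.83 and within batch 2 it was 2.91. Nuclei of microglial clusters in place of the gate gave a log2 fold change of 2.16 with an adjusted p of 0.104, so the call was lost there. Without DAM-gated nuclei it was 2.79 (adjusted p = 0.017), and in DAM-gated nuclei alone 1.19 (adjusted p = 0.569). Markers of other types in these microglial sums also moved with age without overlap. The 10 oligodendrocyte markers summed to 132, 153, 301 and 303 CPM, the 10 astrocyte markers to 376, 271, 548 and 523 and the 10 vascular markers to 19, 45.6, 69 and 77.9. Ctse in oligodendrocytes was at 1.6 CPM at most and had no UMI in astrocytes or vascular cells. The vascular zero, over 113135 UMIs in 3 libraries, allows up to 26.5 CPM. The part of these types in the Ctse rise was not tested. The 5 homeostatic microglial markers were lower at 6 months, at 3446, 2975, 2476 and 2424 CPM, and the 6 macrophage markers summed to 7.35 to 19.3 CPM.

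The Ctse rise was also seen as more nuclei with a UMI. In microglia thinned to 1000 UMIs the share was 1.58% in 3M-1 (95% Wilson interval 0.766 to 3.22) and 0.667% in 3M-2 (0.183 to 2.4), against 7.28% in 6M-1 (5.56 to 9.47) and 5.8% in 6M-2 (4.16 to 8.03). The intervals of the 3-month and 6-month libraries did not overlap, for counting error only. The mean difference was 5.42 percentage points, and 9.004 without thinning. With 2 libraries against 2, the exact two-sided permutation test cannot go below p = 0.3333, which it gave. In oligodendrocytes, with a median of 2140 UMIs against 1842 in microglia, 1 of 4234 thinned nuclei held a Ctse UMI.

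The other 9 genes did not pass the test in microglia. Ctsd was at 333 and 374 CPM at 3 months and 489 and 454 at 6 months, without overlap, at a log2 fold change of 0.40 ± 0.175 (adjusted p = 0.558). Ctss, listed above, had 0.34 ± 0.184 (adjusted p = 0.699). Cst7 was at 18.1 and 8.82 CPM at 3 months and 24.8 and 24.5 at 6 months, at 0.76 ± 0.413 (adjusted p = 0.699). Ctss, Ctsd, Ctse, Cst7, Cd68 and Cd63 had both 6-month libraries above both 3-month ones. That is 6 of 10, where 20% of the genes with at least 40 UMIs had this order. For Cd63 the margin was small, at 50.7 and 50 CPM at 3 months and 67.6 and 51.2 at 6 months. In thinned microglia the mean share with a UMI was lower at 6 months for Cd63 (-0.531 points). It was higher for Ctss, Ctsd, Ctse, Cst7 and Cd68.

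Ctsb was at 395 and 279 CPM at 3 months and 319 and 368 at 6 months, with a log2 fold change of -0.01 ± 0.198. Ctsl had 0.13 ± 0.211, Ctsz 0.13 ± 0.212, Cd68 0.26 ± 0.242 and Cd63 0.21 ± 0.259. For Ctsl and Ctsz 3M-1 was the lowest library, at 96.9 CPM against 126 to 134 (Ctsl) and 135 against 192 to 221 (Ctsz). Over the 10 genes the median log2 fold change was 0.30, beside a median near 0 over all genes tested. Of 95 tested genes of the other lysosomal lists, none passed, and their median was 0.02.

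Cst3 varied more between the 3-month mice than between the ages. In microglia 3M-1 was at 319 CPM and the other 3 libraries at 760 to 906. The same library was lowest in every type tested: 45.5 CPM against 107 to 165 in oligodendrocytes, 47.6 against 103 to 108 in OPC, 297 against 885 to 1405 in astrocytes, 15.2 against 23.8 to 33.3 in excitatory neurons and 24.9 against 40.7 to 52.9 in inhibitory neurons. The log2 fold change with age in microglia was 0.41 ± 0.303 (adjusted p = 0.836). It was -0.15 without 3M-1. Without 3M-2 it was 1.30 with an adjusted p of 2.76e-07, a fit with 3M-1 as its single 3-month library, which takes its spread from the 6-month pair, and which called 539 of 12370 genes. The within-batch log2 ratios were 1.44 and -0.25.

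**Figure D2:**
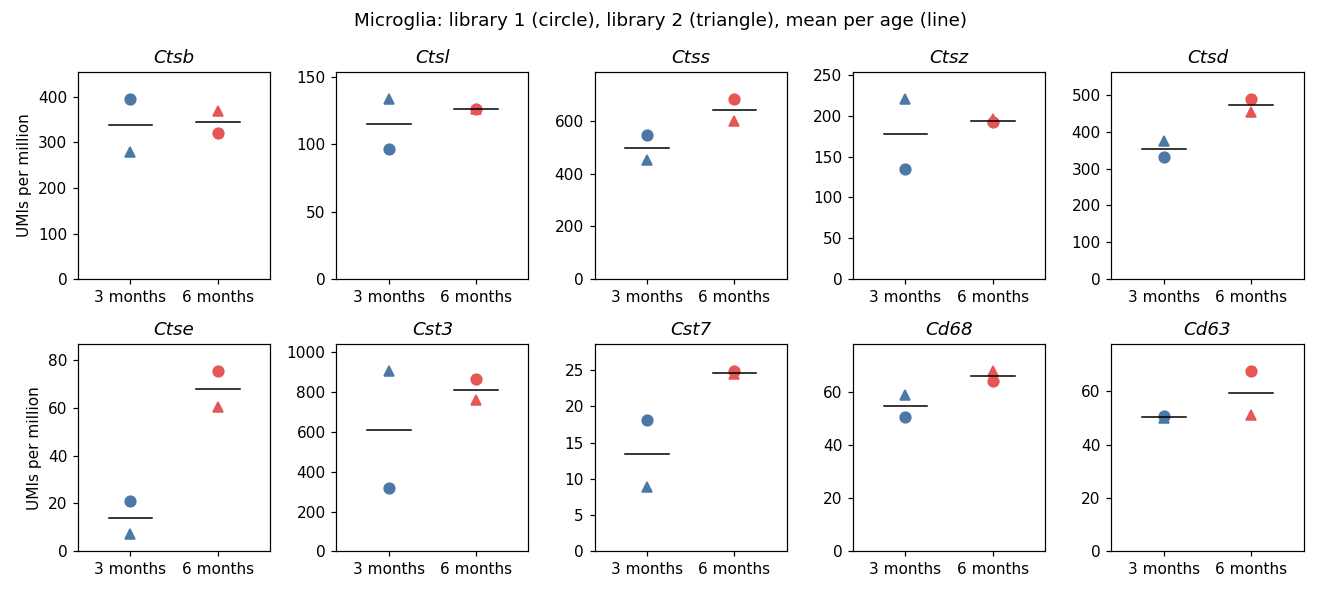
Level in microglia in CPM at 3 months (blue) and 6 months (red). Circles are the first library of each age, triangles the second, and lines the mean of 2 libraries. The Ctse points at 60.4 and 75.2 lie above those at 7.35 and 20.8, and for Cst3 a single 3-month library is low.

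In the other cell types no member passed the edgeR test with age. Among oligodendrocytes 7 were tested, beside 0.0159% of all genes called. Unadjusted p-values under 0.05 were given by 3 members (DESeq2 called none and gave 2). These were Ctss, Ctsd and Cst3, with log2 fold changes of 1.23 ± 0.387, 1.12 ± 0.247 and 1.01 ± 0.289 and adjusted p of 0.409, 0.179 and 0.353. Ctsd was at 13.5 and 18.7 CPM at 3 months and 35.6 and 38.1 at 6 months, without overlap. Ctsd and Cst3 passed without 3M-2, where 939 of 13304 genes did.

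Among excitatory neurons all 10 were tested, beside 0.00519% of all genes called, and 5 had an unadjusted p under 0.05 (Ctss, Ctsz, Ctse, Cst3 and Cst7). DESeq2 called 1 of them, Ctss. Ctss was at 1.02 and 1.94 CPM at 3 months and 4.72 and 4.37 at 6 months (edgeR log2 fold change 1.58 ± 0.327, adjusted p = 0.335). Ctse had 1 and 3 UMIs at 3 months and 25 and 12 at 6 months. Without 3M-2, edgeR called Ctss, Ctsz, Ctse and Cst3, 4 members, among 2443 of 19853 genes. In 9 of the 10 genes both 6-month libraries lay above both 3-month ones, where 20.8% of genes did. The summed level of the 14 microglial markers in the same neurons moved alike, 23.9 and 29.7 CPM at 3 months and 65 and 48.8 at 6 months, and its part in these values was not tested. In oligodendrocytes it was 108, 107, 140 and 189 CPM.

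For OPC, 0.311% of all genes were called and none of the 6 members tested, nor any at an unadjusted p under 0.05, and DESeq2 called none. For astrocytes, 0% of genes were called and none of 5 members, again with none unadjusted and none by DESeq2. Without 3M-2, Cst3 was called in OPC and in astrocytes, with 319 of 11758 and 58 of 5468 genes; 3M-1, the library low in Cst3, was then the only 3-month one. For inhibitory neurons, 0% of genes were called and none of 8 members. Here Ctss (1.66 ± 0.393) and Cst3 (0.56 ± 0.237) had unadjusted p under 0.05, and DESeq2 called neither. Ctss passed there with no filter on low counts. Whether the change with age differed between microglia and oligodendrocytes was tested as an interaction. It called 1.1% of all genes and no member; 4 members had an unadjusted p under 0.05 in edgeR and none in DESeq2. The Ctse interaction (change in microglia minus that in oligodendrocytes) was -2.40 ± 1.67. With no Ctse UMI in oligodendrocytes at 3 months, and 4 and 5 at 6 months, this value could not tell whether the rise differed between the types. None of the other lysosomal genes passed with age in any type.

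The last question was how the genes differed between microglial states. Microglia of at least 1000 UMIs were thinned to 1000 and called DAM-gated when they held at least 2 of 14 DAM markers, none of them a member. This took 418 of 2000 nuclei: 21.6%, 15.7%, 23.7% and 19.7% of the microglia by library. Comparing the 2 classes of the same mouse, 8 of 10 members passed the edgeR test, 7 higher and 1 lower in DAM-gated nuclei, beside 9.43% of 7760 genes. The median log2 difference was 0.85 for the members and near 0 for all genes. DESeq2 called 5 of the 9 members it gave an adjusted p, and edgeR called 5 without 3M-1 and 5 of 9 tested when counts came from the thinned nuclei. With 1 more DAM marker required, 7 of 9 tested passed, 5 higher and 2 lower. The median depth was 1859 to 2604 UMIs in DAM-gated and 1631 to 2237 in other microglia. The 10 vascular markers summed to 47.3, 104, 159 and 188 CPM in DAM-gated nuclei and 9.66, 35.9, 35.8 and 50.5 in the others, higher in each mouse, and their part in these differences was not tested. Macrophage markers summed to 0 to 36.2 CPM in DAM-gated nuclei and 7.97 to 19.3 in the others, and the 5 homeostatic markers to 1702 to 2255 and 2605 to 3816.

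By the edgeR fit Ctsb had the largest difference among the 6 cathepsins, while the mean within-mouse log2 ratio was larger for Ctse (1.49 against 1.34). Ctsb stood at 879, 692, 420 and 655 CPM in DAM-gated nuclei and at 252, 191, 286 and 297 CPM in other microglia. All DAM-gated values lay above all others, with a log2 difference of 1.28 ± 0.158 (adjusted p = 2.64e-05). Ctsz was at 244, 388, 267 and 292 against 99, 177, 165 and 172 CPM, also without overlap (0.92 ± 0.137, adjusted p = 0.000155). Ctsd was at 505, 644, 615 and 675 against 272, 331, 446 and 399 CPM (0.73 ± 0.109, adjusted p = 0.000159). Ctse was higher within each mouse, at 55.2, 19, 117 and 75.9 against 10.9, 3.99, 60.3 and 57.1 CPM, though the classes overlapped across ages (1.00 ± 0.272, adjusted p = 0.0225). Only 2 Ctse UMIs stood behind each class of 3M-2. The Ctse call was lost without library as a block, which drops the pairing of the classes by mouse (adjusted p = 0.363). It was also lost with DESeq2 (0.0938), with the stricter gate (0.147) and in thinned counts (0.167). Leaving out 3M-1 (0.139), 3M-2 (0.0501) or 6M-1 (0.0953) lost it as well.

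Ctsl and Ctss did not pass. Ctsl was higher in DAM-gated nuclei of 4 of 4 mice (0.44 ± 0.16, adjusted p = 0.0943). Ctss was lower in 3 of 4 mice (-0.23 ± 0.102, adjusted p = 0.201), with 438, 455, 604 and 547 CPM in DAM-gated nuclei and 576, 452, 714 and 613 in the others. With 1 more DAM marker required, Ctss was lower by the test (-0.44 ± 0.135, adjusted p = 0.0123).

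The cystatins moved in opposite directions. Cst7 was at 47.3, 28.4, 44.5 and 40 CPM in DAM-gated nuclei and 9.66, 3.99, 18.9 and 21 in others, without overlap (1.48 ± 0.361, adjusted p = 0.0113), and not called without 3M-1 (adjusted p = 0.117). DESeq2 gave Cst7 no adjusted p, and Cst7 was not tested with the stricter gate or in thinned counts. Only 3 Cst7 UMIs stood behind the DAM-gated value of 3M-2 and 2 behind its other microglia. Cst3 was at 166, 540, 601 and 635 CPM in DAM-gated nuclei and 361, 967, 946 and 774 in others. It was lower in 4 of 4 mice (-0.68 ± 0.119, adjusted p = 0.000697), while 3M-1 was lowest in both classes. Without library as a block, and so without pairing by mouse, it was -0.67 with an adjusted p of 0.336. Both membrane genes were higher in DAM-gated nuclei. Cd63 was at 94.6, 133, 94.6 and 87.9 against 32.6, 31.9, 55.6 and 40 CPM (1.22 ± 0.228, adjusted p = 0.00128). Cd68 was at 78.9, 114, 83.5 and 99.9 against 42.3, 45.8, 56.6 and 60 CPM (0.79 ± 0.208, adjusted p = 0.0186). The Cd68 call was lost with DESeq2 (adjusted p = 0.138), in thinned counts (0.652) and without 3M-1 (0.1), 3M-2 (0.0764) or 6M-2 (0.0856).

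**Figure D3:**
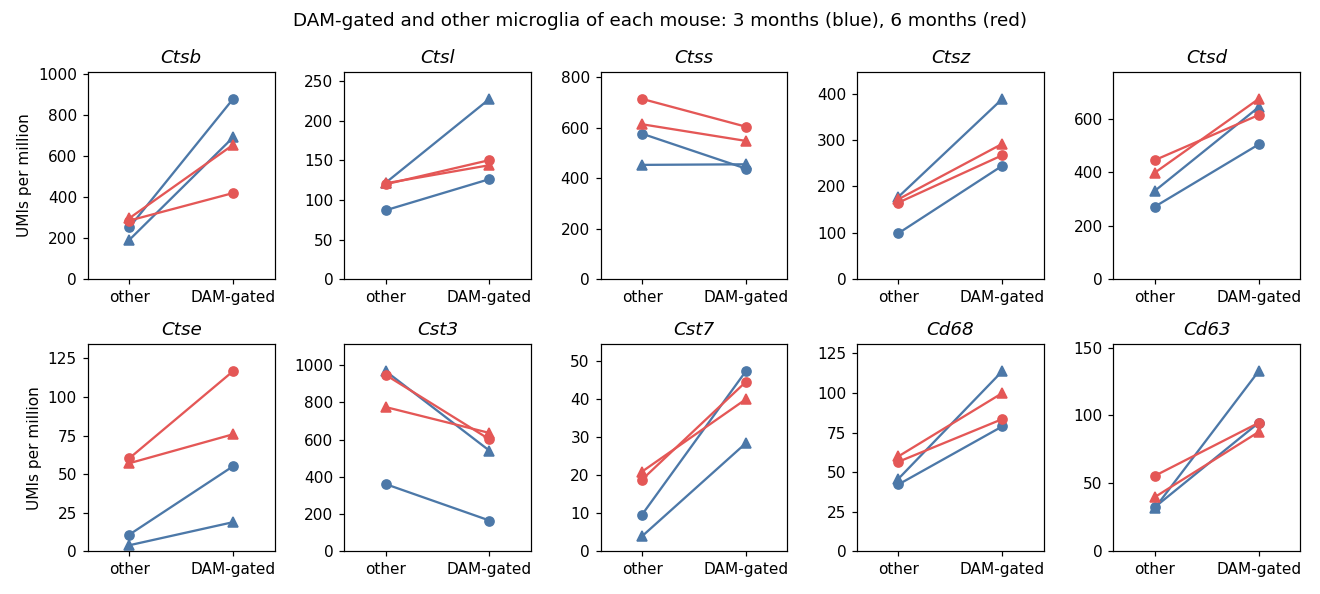
Level in CPM in other and DAM-gated microglia. Each line joins the 2 classes of 1 mouse (blue 3 months, red 6 months; circles first library, triangles second). Lines rise for 8 genes in every mouse, fall for Cst3 in every mouse, and fall in 3 of 4 mice for Ctss.

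Of 81 tested genes of the other lysosomal lists, 13 were higher and 4 lower in DAM-gated nuclei, with a median log2 difference of 0.19. Over all 7760 genes tested, 385 were higher and 347 lower, which is 9.43% in either direction. By list, 2 of 6 genes listed with the other cathepsins were higher. The 1 lower gene of that list was the protease Lgmn, listed beside the cathepsins. Of 4 other tetraspanins 1 was higher, as were 2 of 27 hydrolases and 3 of 19 lysosomal membrane genes. Of 17 V-ATPase subunits, which acidify the lysosome, 3 were higher and 1 lower, and of 8 sorting and regulation genes 2 were higher and 2 lower. The 5 highest by p were Gpnmb, a glycoprotein of phagocytes (4.15 ± 0.34), the tetraspanin Cd9 (1.48 ± 0.14), the transcription factor Mitf (0.72 ± 0.106), the V-ATPase subunit Atp6v1a (1.19 ± 0.177) and Gnptab, which makes the mannose 6-phosphate tag (1.06 ± 0.192). The 4 lower were the sorting receptors Sort1 (-0.64 ± 0.16) and Sorl1 (-0.74 ± 0.227), the V-ATPase subunit Atp6v0a2 (-0.72 ± 0.19) and the protease Lgmn (-0.34 ± 0.105).

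Whether the DAM difference of a gene changed with age was tested as an interaction. It called 0% of all genes and none of the 10 members by edgeR or DESeq2, with 3 members (Ctsb, Ctse and Cst3) at an unadjusted p under 0.05 in edgeR. The Ctsb interaction was -0.94 ± 0.215 (adjusted p = 0.206). The within-mouse log2 ratios of Ctsb were 1.80 and 1.86 at 3 months and 0.56 and 1.14 at 6 months, without overlap. The Ctsb interaction passed without 3M-2 and without 6M-2, and not without 3M-1 or 6M-1. Each of these fits has a single library at 1 age and takes its spread from the pair at the other age.

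**Figure D4:**
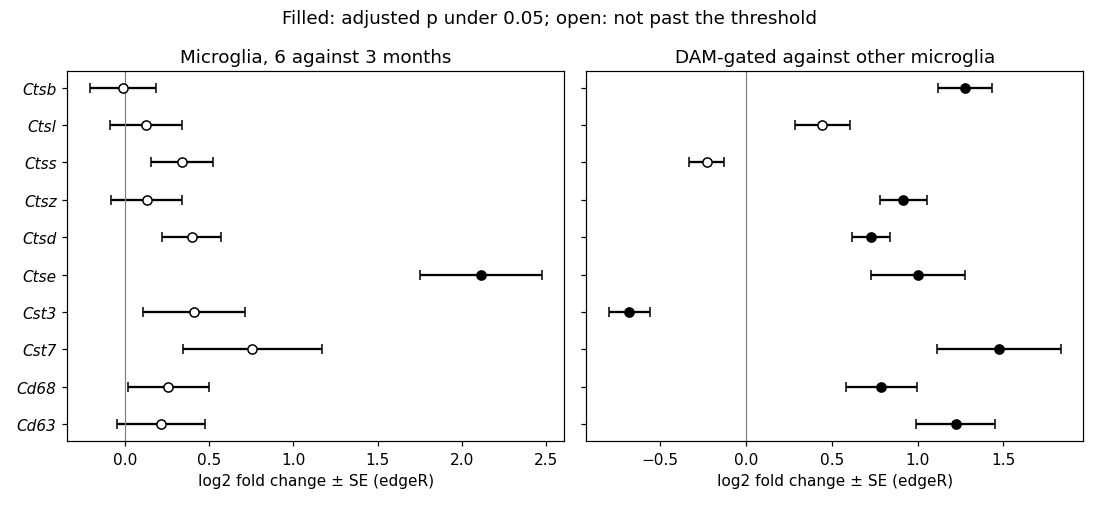
Log2 fold change ± SE (edgeR) of each gene for microglia at 6 against 3 months (left) and DAM-gated against other microglia (right). Filled points passed an adjusted p of 0.05: Ctse alone with age, and 8 of 10 genes between the classes.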

How the data were processed

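Nuclei were isolated with EZ lysis buffer, sorted for DAPI and sequenced with a 10x 3′ kit, v3.1 per the labels and version 3 per the study's methods. The deposited matrices hold raw UMI counts, made by the authors with Cell Ranger 7.0.0 per the file headers, on mm10 per the submitters' processing notes. Replicates are different mice, 2 an age, so p-values rest on 4 libraries.

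Nuclei with at most 7000 genes and 1% mitochondrial UMIs were kept, as in the study. Nuclei were gated by marker UMIs per 10000 (at least 40 for microglia), with at least 2 distinct markers and the second class at most 66.7% of the first. Cuts were set after the marker sums were seen, and 127 nuclei lay within 20% of the microglial one. Scrublet called 3.88% to 8.78% of nuclei doublets, and they were left out only as an alternative. The members, lists and gates were chosen with earlier results of these data known, and Lilrb4a, Myo1e, Igf1, Fam20c, Ccl3 and Lpl among the DAM markers were leading genes of a cluster of these nuclei.

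Counts were summed per library and type (at least 10 nuclei) and tested with edgeR 4.0.16 (quasi-likelihood, TMM, filterByExpr; R 4.3.3), with Benjamini-Hochberg adjustment over all genes tested and a threshold of 0.05. The SE is the log2 fold change over the square root of F. CPM values use the library total of the type. Per-mouse ratios and the search for genes most alike added 0.5 to each count. Alternatives included DESeq2 1.42.0, no TMM, no filter, clusters, doublets left out, thinning, a stricter DAM gate and leaving out each library. Named genes are the 10 members, up to 5 higher and 5 lower genes of the other lysosomal lists by p, and the 3 genes most like each member with at least 10 UMIs in 12 sums.

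The labels give replicate 1 and batch 1, and replicate 2 and batch 2, together at both ages. The replicate differences at 3 and 6 months correlated at 0.0438 in microglia and between -0.128 and 0.0182 in the other types. Of the identifiers 32158 were found in GENCODE M21. A gene that the naming rule takes is not reported here.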

Additional observations from a re-analysis of the deposited data

Results flagged for a closer look

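Within-mouse log2 ratios were checked for a mouse far from the other 3 by Dixon's rule, in 60 sets of 4 mice. Chance flags about 1 in 20 sets, and 5 were flagged. For Ctsb in microglia against OPC, 3M-1 was at 3.49 and the others between 2.83 and 2.94. For Ctsl in microglia against inhibitory neurons, 6M-1 was at 1.82 and the others between 1.67 and 1.69. For Ctse in microglia against inhibitory neurons, 6M-2 was at 5.94 and the others between 6.70 and 6.81, with 6 Ctse UMIs in the neurons of 6M-2. For Cst3 in microglia against astrocytes, 6M-2 was at -0.89 and the others between -0.03 and 0.09. In the astrocytes of 6M-2 the microglial markers were also highest, at 359 CPM against 32.5 to 36.0 in the other libraries, and their part in the value was not tested. For Cd68 in microglia against excitatory neurons, 6M-1 was at 5.35 and the others between 5.89 and 5.96.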

How the results depend on the processing

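Of 1200 refitted log2 fold changes of members with an adjusted p (DESeq2 gave none for 12 others), 1104 kept their direction and their side of the threshold, 19 lost a call, 25 gained one and 52 changed sign, none of these 52 called before or after. In microglia with age, 1 member was called (Ctse) and 0 with clusters in place of the gate or in DAM-gated nuclei alone. The fits without DAM-gated nuclei and in DAM-gated nuclei alone were chosen after seeing the data. Leaving out a library gave 1 to 2 members, with Ctse at 1.65 to 3.19 (log2). Members called with age elsewhere went from 0 to 2 in oligodendrocytes and 1 in inhibitory neurons with no filter on low counts, and to 1 in excitatory neurons with DESeq2. Leaving out a library gave 0 to 2 in oligodendrocytes, 0 to 1 in OPC, 0 to 1 in astrocytes and 0 to 4 in excitatory neurons, the highest each time without 3M-2, where the genes called rose to 939, 319, 58 and 2443. Between DAM classes, 8 members became 5 with DESeq2, 5 in thinned counts, 7 with the stricter gate (5 higher, 2 lower) and 5 to 7 without a library (5 without 3M-1), and the interaction with age went from 0 to 0 to 1. The Ctse share difference of 5.42 points became 9.004 without thinning. The cause was not tested.

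The uncalled age changes in microglia that changed sign were Ctsb (-0.01; 0.0098 with the replicate block, 0.0189 without TMM, 0.0126 with no filter, 0.35 without DAM-gated nuclei, -0.26 to 0.30 without a library), Ctsl (-0.12 in DAM-gated nuclei alone, -0.0832 to 0.33 without a library), Ctsz (-0.0939 and -0.18 to 0.47), Cd63 (-0.22 in DAM-gated nuclei alone) and Cst3 (-0.15 to 1.30 without a library). Cd63 in microglia against oligodendrocytes ranged from -0.0754 to 0.21 without a library and was 0.43, and called, without TMM. With the replicate block, genes called with age rose from 26 to 129 in microglia, 2 to 13 in oligodendrocytes, 1 to 9 in excitatory and 0 to 9 in inhibitory neurons. It changed no member's age call, and members called were 1 in microglia and 0 in the other types. Without library as a block, and so without pairing by mouse, 6 members passed between DAM classes and 313 genes in place of 732. The vascular age test could not be run with 9 nuclei in 3M-1. Low counts limit Ctse and Cst7, at 5 and 6 UMIs in the microglia of 3M-2.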
